A study of Mus musculus with 41 samples.

Results

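The genes described here carry the insulin and insulin-like growth factor (IGF) signal from ligand to cell, and were followed in mammary tumors that arose in mice on a diet high in animal fat (HFD), on a low-fat diet (LFD), or on both in turn. They are 10 genes, the ligands Igf1 and Igf2, the receptors Igf1r, Insr and Igf2r, the docking proteins Irs1 and Irs2, and the binding proteins Igfbp2, Igfbp3 and Igfbp5, taken by exact gene name from the arrays and each represented by the brightest of its probes. All 10 were among the 20913 genes that could be tested, and together they had 19 probes. The rule that picks them goes by gene name and uses no measured difference.

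IGF1 and IGF2 are secreted growth factors that bind the IGF1 receptor, a tyrosine kinase. Insulin binds the closely related insulin receptor. Both kinases phosphorylate the docking proteins IRS1 and IRS2, which recruit phosphoinositide 3-kinase and so feed the AKT and mTOR pathway. IGF2R has no kinase and carries IGF2 to the lysosome, and the IGFBPs hold the ligands in the extracellular fluid. In the mammary gland, IGF1 acts downstream of growth hormone in duct elongation at puberty, and adipose tissue and fibroblasts are among its sources.

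The tumors came from fragments of mammary ducts of 4 Trp53-null BALB/c donors aged 8 weeks, placed in the cleared inguinal fat pads of wild-type female BALB/c mice aged 3 weeks, so the epithelium lacked Trp53 in every group while the host stroma did not. Mice ate LFD, with 10% of energy from fat, or HFD, with 60%, from 3 weeks of age, and in the HFD-LFD and LFD-HFD groups the diet was switched at 10 weeks. Tumors were taken at a diameter of 1 cm and called early or late by a latency limit of 52 weeks. RNA of each of 41 tumors was hybridized with Universal Mouse Reference RNA, a pool from mouse cell lines, on a 2-color Agilent array. The 29 epithelial tumors, which carry a label of variable morphology, comprised 8 of mice on LFD, 8 of mice on HFD, 7 on HFD-LFD and 6 on LFD-HFD, with 14 early and 15 late. The 12 spindle cell tumors comprised 3 from each regimen, 3 of them early and 9 late. Each tumor was 1 sample, and a bulk sample cannot separate fewer cells of a type from less RNA per cell.

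Values are log2 of tumor over reference signal. The sample labels put the tumor in Cy5 and the reference in Cy3, whereas the methods of the study give Cy5 to the reference, and the labels were followed. The Y-linked genes Ddx3y and Eif2s3y, which female tumors lack, were below 0 on all 41 arrays, at -7.64 to -3.90 and -8.65 to -2.59. The Y-linked Uty was below 0 on 36 arrays and Kdm5d on 16. The 11 epithelial markers were well above background in all 29 epithelial tumors and in 11 or 12 of the spindle cell tumors. Their means ran from -1.46 for Krt5 to 2.58 for Krt18 in epithelial tumors, with Epcam at 2.24. In spindle cell tumors they ran from -1.76 for Krt5 to 2.055 for Krt18, with Epcam at 1.47. The 12 fibroblast markers ran from -2.96 for Col1a1 to 0.34 for Thy1 in epithelial tumors. In spindle cell tumors they ran from -2.06 for Lum to 0.85 for Thy1. Vim, on this list, had means of -1.61 and -0.42. All member probes used were well above background in both channels on 41 arrays, and none was saturated. In the epithelial HFD tumor 60L the scanner software marked 22% of spots as outliers, against a median of 0.61% over the epithelial arrays, and 60L has no value for 8 members, which leaves 28 epithelial tumors for every gene but Igf2 and Insr. The spindle cell arrays had their own scanner and scan session, and these cannot be told apart from histology. The early HFD epithelial tumors 42L4B and 60L lay on a slide and in a scan session that held no other tumor. The arrays lay on 11 slides, and slide was largely tied to regimen among the epithelial tumors. For the HFD epithelial tumors 40R4A, 57R and 65R the matrix that was deposited and the scanner output disagree on which tumor is which, the latter was followed, and the choice touches onset only.

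The probes behind the genes on which the results turn are shown first, since each value below is the signal of 1 such stretch. The stretches are the first 30 of the 60 bases of each probe, 5′ to 3′, all in lower case. For Igf1, probes 1 and 4 are shown because they gave different values.
Igf1, probe 1: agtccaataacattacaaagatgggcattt
Igf1, probe 4: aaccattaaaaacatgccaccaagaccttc
Igf2: atcaaattatgtggtaattctgcaatgtag
Insr: cagattctagctaatgaattcttgacaaca
Irs2: tggagctttgccctctgccagcacctatgc
Igfbp3: gcagttttccaaaaacacagatttcttttc

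In the mm9 build given in the scanner files, the 60 bases lie at chr10:87393581-87393640 on the plus strand for Igf1 probe 1 and at chr10:87378456-87378515 on the plus strand for probe 4. The Igf2 probe lies at chr7:149839661-149839720 on the minus strand. The Insr and Irs2 probes lie on the minus strand of the same chromosome, at chr8:3151667-3151726 and chr8:11004490-11004549. The Igfbp3 probe lies at chr11:7106594-7106653 on the minus strand. An exon annotation of that build was not used here.

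Across the 29 epithelial tumors the 10 genes varied more from tumor to tumor than most genes did. Their standard deviations (SD) ran from 0.75 for Igf2r to 1.50 for Igfbp5, against a median of 0.56 over all genes tested. Igfbp5 stood at the 97.2 percentile of all genes, Irs2 at 95.5 and Igf2r, the lowest of the 10, at 71.8. In the spindle cell tumors Igfbp5 had an SD of 2.23, the 99.1 percentile, whereas that of Igf1r was 0.40, the 34.1 percentile. Most of this spread lay within regimens, where the SD of epithelial Igfbp5 was 1.56 and that of Irs2 was 1.39. The plot of values by regimen shows groups that overlap for most members.

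**Figure D1:**
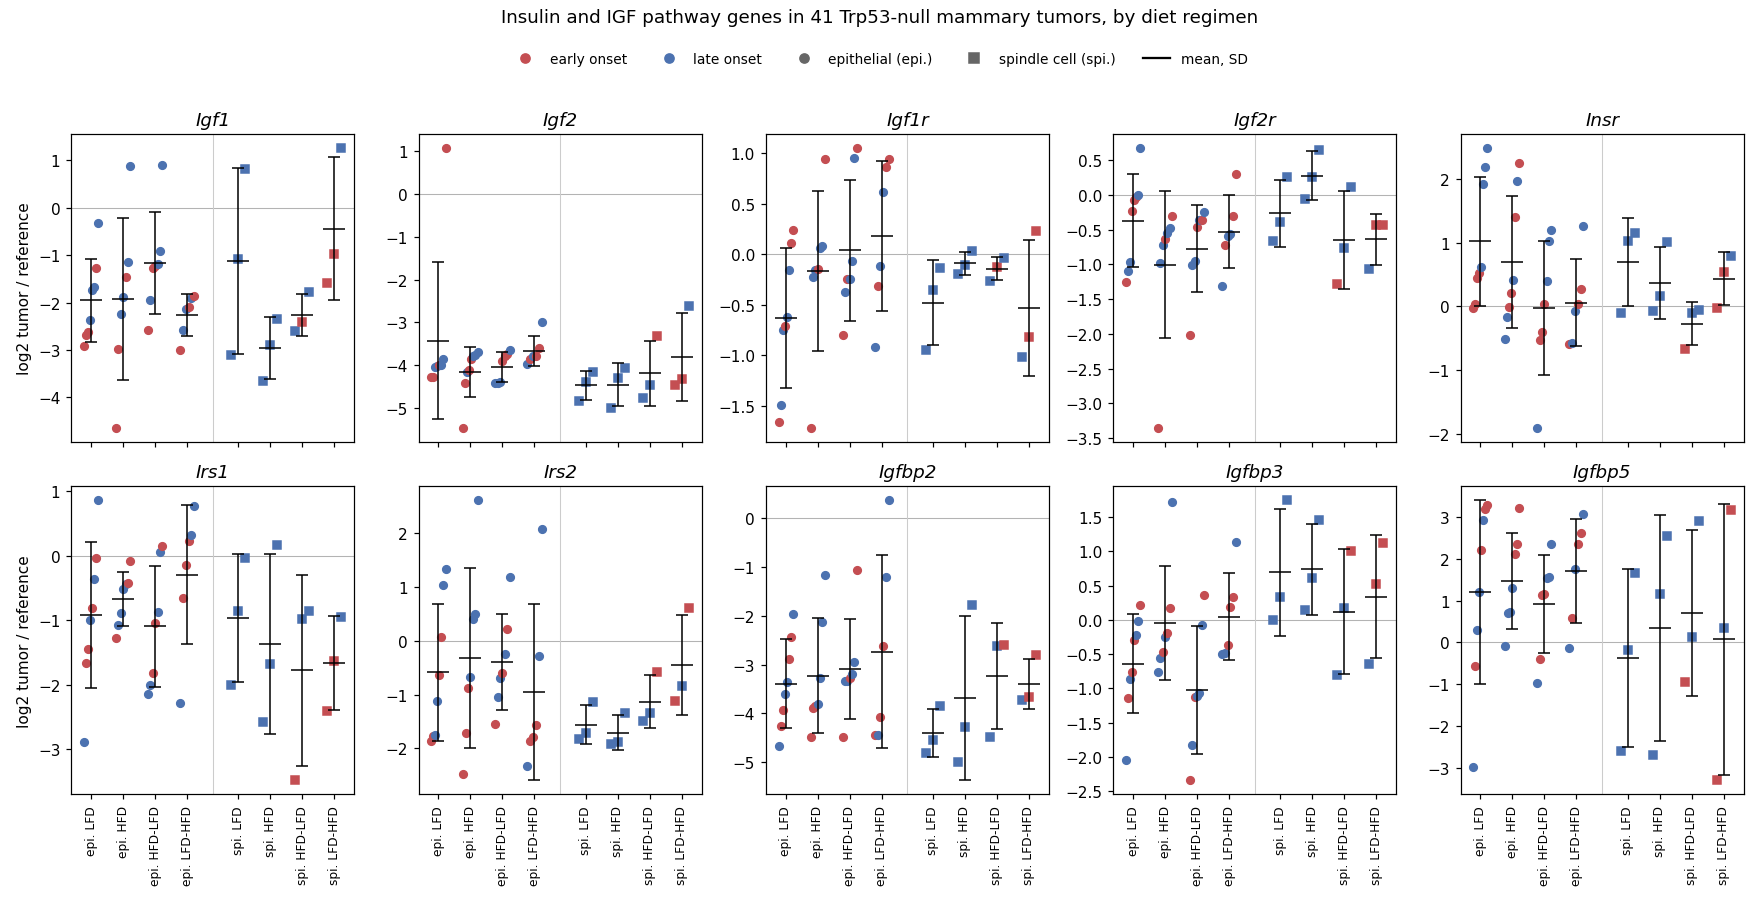
Each point is 1 tumor, the vertical axes give log2 of tumor over reference signal for 1 gene each, on scales that differ between genes, and the columns are the 4 regimens in epithelial (circles) and spindle cell (squares) tumors, with early tumors in red, late tumors in blue and bars for the mean and SD. The regimens overlap for most genes, and the epithelial tumor at 1.08 for Igf2 lies apart from the other 28, which reach -2.99 at most.

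No member passed the test for any difference among the 4 regimens in epithelial tumors, in the F-test of limma at an adjusted p of 0.10. Over all genes 0.473% passed it. Without adjustment, 1 of the 10, Igfbp3, had p under 0.05, as did 12.9% of all genes. Igfbp3, which binds most of the IGF1 in plasma, ranged from -2.04 through a median of -0.53 to 0.22 in LFD tumors and from -0.76 through -0.25 to 1.72 in HFD tumors. In HFD-LFD tumors it ranged from -2.34 through -1.12 to 0.36, and in LFD-HFD tumors from -0.50 through -0.09 to 1.13. The 4 regimens overlapped, and the adjusted p of Igfbp3 was 0.381.

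Taken pair by pair, no member passed the adjusted threshold between any 2 regimens of epithelial tumors. Calls over all genes were 1.25% for HFD-LFD against LFD, 0.263% for LFD-HFD against HFD and 0.0287% for HFD-LFD against HFD. They were 0% for HFD against LFD, for LFD-HFD against LFD and for LFD-HFD against HFD-LFD. These comparisons share groups and are not independent of each other. In HFD against LFD, the pair with no switch of diet, no member had an unadjusted p under 0.05, whereas 9.42% of all genes did. In the other pairs 1 member or none had an unadjusted p under 0.05, beside 13.5% of all genes for HFD-LFD against LFD, 6.56% for LFD-HFD against LFD, 10.4% for LFD-HFD against HFD, 13.4% for HFD-LFD against HFD and 5.07% for LFD-HFD against HFD-LFD. The median difference over the 10 members was 0.20 in HFD against LFD, beside -0.02 over all genes, and 7 of the 10 lay above 0.

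Insr, the insulin receptor, was lower in HFD-LFD than in LFD tumors before adjustment. It ranged from -0.03 through a median of 0.57 to 2.48 in the 8 LFD tumors and from -1.90 through 0.04 to 1.19 in the 7 HFD-LFD tumors, so the groups overlapped. The difference was -1.05 (SE 0.48, limma adjusted p = 0.332). Insr probes 2 and 3, dimmer than the probe used, had an r of 0.72 and 0.58 with it over the epithelial tumors. The probes were compared for pubertal HFD, which joins HFD and HFD-LFD, rather than for HFD-LFD against LFD. In epithelial tumors probes 2 and 3 gave 0.08 and 0.90 there, against -0.25 for the probe used. The correlations of Insr given below rest on the probe used alone. Igf1r, the receptor of both IGFs, ranged from -1.66 through -0.66 to 0.24 in LFD and from -0.91 through 0.25 to 0.94 in LFD-HFD tumors. Here the difference was 0.81 (SE 0.38, limma adjusted p = 0.742), and the groups again overlapped. Igfbp3 had an unadjusted p under 0.05 in HFD-LFD against HFD, at -0.98 (SE 0.41, limma adjusted p = 0.300), and in LFD-HFD against HFD-LFD, at 1.08 (SE 0.42, limma adjusted p = 0.966).

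When the regimens were grouped by the diet of each period, neither the pubertal nor the adult diet gave a member past the threshold in epithelial tumors, and 0% of all genes passed in either. For pubertal HFD, which joins HFD and HFD-LFD, 0 of the 10 members had an unadjusted p under 0.05, beside 9.88% of all genes. The pubertal difference of Igf1 was 0.53, with an interval of -0.29 to 1.36, and that of Igf2r was -0.45, with an interval of -0.99 to 0.10. With spindle cell tumors included and no term for histology, again 0 of the 10 passed and 0 had an unadjusted p under 0.05, while 0.00956% of all genes were called and 6.95% were under 0.05 unadjusted. Histology as a covariate gave 0 and 0 members too.

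For adult HFD, which joins HFD and LFD-HFD, 1 member of 10 had an unadjusted p under 0.05, beside 4% of all genes, and it was Igfbp3. In the 13 adult HFD tumors with a value, Igfbp3 ran from -0.76 through a median of -0.25 to 1.72. In the 15 adult LFD tumors it ran from -2.34 through a median of -0.87 to 0.36. All 13 adult HFD tumors lay above the median of the adult LFD tumors, although the ranges overlapped. The difference was 0.82 (SE 0.28, interval 0.24 to 1.40), or 1.76-fold, and the limma adjusted p was 0.947. The second, dimmer Igfbp3 probe, whose tumor signal was well above background on 33 of 41 arrays, gave a difference of 0.75. No slide held both adult diets among the epithelial tumors, and a random block for slide gave 0.81 (limma adjusted p = 0.9995). All 12 fibroblast marker genes had a higher mean in adult HFD tumors, with a median difference of 0.40 beside 0.01 over all genes. Of these 12, 4 had an unadjusted p under 0.05 in limma and 0 were called. The mean over the list was -2.94 to -0.26 in adult HFD and -3.14 to -1.26 in adult LFD tumors. The -2.94 is that of 60L, which has no Igfbp3 value, and the next lowest adult HFD tumor was at -2.47. The part of fibroblasts in the difference of Igfbp3 was not tested.

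**Figure D2:**
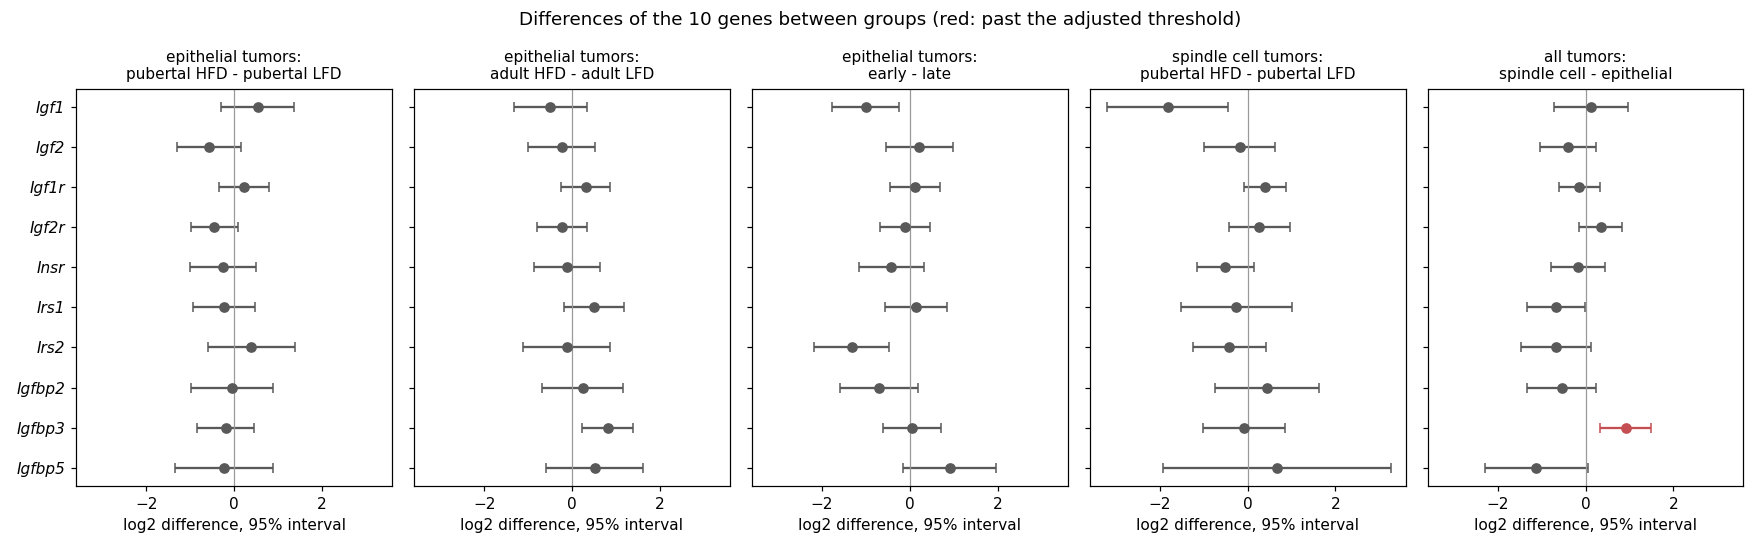
Points give the difference of each gene between 2 groups on the log2 scale and bars the 95% interval from limma, for pubertal HFD, adult HFD and early onset in epithelial tumors, pubertal HFD in spindle cell tumors, and spindle cell against epithelial tumors. Igfbp3 in the last panel, at 0.91, is the 1 difference past its adjusted threshold (red).

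Between early and late epithelial tumors, Irs2 and Igf1 had the 2 lowest p-values of the 10 members, both with lower values in early tumors, and neither passed after adjustment. Of all genes 0.143% passed, and 13.2% had an unadjusted p under 0.05, as did 2 of the 10 members. Irs2, a docking protein of the insulin and IGF1 receptors, ran from -2.47 through a median of -1.56 to 0.22 in the 13 early tumors with a value and from -2.33 through -0.25 to 2.61 in the 15 late ones. Of the early tumors, 11 lay below the late median, while the ranges overlapped. The difference was -1.33 (SE 0.42, interval -2.19 to -0.46), a 2.51-fold lower mean in early tumors, with a limma adjusted p of 0.190.

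The lower Irs2 of early tumors appeared in each regimen taken alone. Early minus late was -0.92 in LFD, -2.40 in HFD, -0.44 in HFD-LFD and -1.56 in LFD-HFD tumors, with 3 or 4 tumors on each side and no separate test. In LFD and in HFD-LFD tumors, early and late lay on different slides, so onset there cannot be told apart from slide. On the 3 slides that held both kinds, early minus late was -3.33, -1.38 and -1.21, and 1 of these slides held the 3 tumors of differing labels. On the slide with -3.33 all early tumors were LFD-HFD and all late ones HFD, so onset there cannot be told apart from pubertal diet. With slide as a fixed block the difference was -2.03 and the limma adjusted p 0.483.

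Igf1, the ligand made by stroma and liver, ran from -4.64 through -2.57 to -1.23 in early epithelial tumors and from -2.57 through -1.73 to 0.90 in late ones. The ranges overlapped, with 6 early tumors below the lowest late one. The difference was -1.01 (SE 0.37, interval -1.77 to -0.24, limma adjusted p = 0.257). It was -0.86 in LFD, -1.94 in HFD, -0.90 in HFD-LFD and -0.11 in LFD-HFD tumors, and -1.30, -0.79 and -0.72 on the 3 slides. As for Irs2, onset cannot be told apart from slide in LFD and HFD-LFD tumors, nor from pubertal diet on the slide with -1.30. Among the 5 Igf1 probes, probes 2 and 3 gave -0.80 and -0.93, whereas probes 4 and 5 gave -0.18 and -0.01. The other ligand, Igf2, had a difference of 0.22 (interval -0.54 to 0.97). When tumors 40R4A, 57R and 65R were given the labels of the deposited matrix, Igf1 no longer had an unadjusted p under 0.05, at -0.74 (limma adjusted p = 0.485), whereas Irs2 did, at -1.30 (limma adjusted p = 0.270), and 9 genes were called in all.

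Among the binding proteins, Igfbp5 was at 1.80 ± 1.31 in early (SD, n = 13) and 0.89 ± 1.56 in late tumors (SD, n = 15), and Igfbp2 at -3.51 ± 1.02 and -2.80 ± 1.35. Their differences were 0.91 (interval -0.16 to 1.97) and -0.71 (interval -1.60 to 0.18). The receptors Igf1r, Igf2r and Insr differed by 0.12, -0.11 and -0.42, and all 3 intervals included 0. The dimmer Insr probes 2 and 3 gave 0.22 and -0.34.

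In spindle cell tumors no member differed among the 4 regimens, with 0 of 10 under an unadjusted p of 0.05, beside 0% of all genes called and 3.74% under 0.05. Pubertal HFD gave 0% of all genes past the threshold, and 1 of the 10 members, Igf1, among the 9.5% of genes with an unadjusted p under 0.05. Igf1 was -3.64, -2.89 and -2.35 in the HFD tumors and -2.42, -2.60 and -1.77 in the HFD-LFD tumors. It was -3.11, -1.08 and 0.80 in the LFD tumors and -1.59, -0.98 and 1.26 in the LFD-HFD tumors. All 6 tumors of pubertal HFD lay below the median of those of pubertal LFD, and 1 LFD tumor, M18L, lay among the lowest. The difference was -1.83 (SE 0.64, interval -3.21 to -0.45), or 3.55-fold lower, with a limma adjusted p of 0.441.

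On the 3 slides of spindle cell tumors, the pubertal difference of Igf1 was -2.42, 0.85 and -2.91, so it changed sign on the slide with M18L. The mean over 9 adipocyte marker genes was 3.18 in the LFD-HFD tumor M76R and 1.51 in the LFD tumor M32L, the 2 tumors highest in Igf1, and -4.90 to -3.27 in the other 10 tumors. The mean over 12 fibroblast markers was -2.79 to -0.98 in pubertal HFD and -2.26 to 0.62 in pubertal LFD tumors. The part of these cell types in the difference was not tested.

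The 5 probes of Igf1 did not give the same difference. Probes 1, 2, 3 and 5 gave -1.83, -2.10, -1.66 and -1.22 for pubertal HFD in spindle cell tumors, whereas probe 4 gave 0.0015. Probe 4 had means of 0.12 in pubertal HFD and 0.11 in pubertal LFD tumors, near the level of the reference in both.

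**Figure D3:**
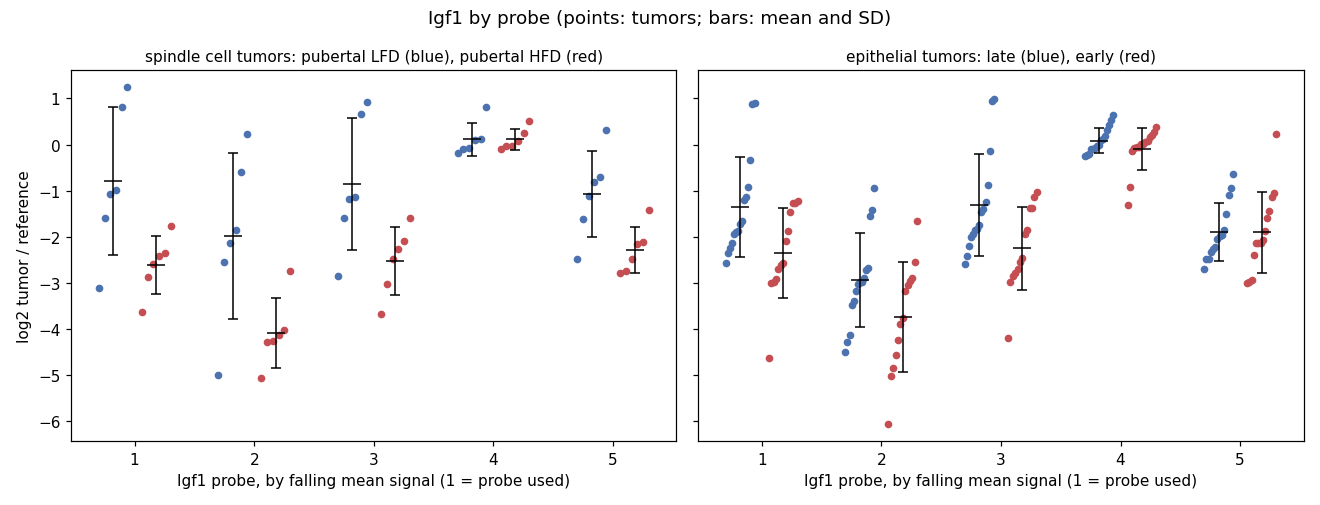
Points are tumors and bars the mean and SD of log2 tumor over reference signal for each of the 5 Igf1 probes, in spindle cell tumors by pubertal diet (left) and epithelial tumors by onset (right), with pubertal LFD and late tumors in blue and pubertal HFD and early tumors in red. Probes 1, 2, 3 and 5 lie lower in pubertal HFD spindle cell tumors, and probe 4 has means of 0.12 and 0.11.

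The pubertal difference of Igf1 was 0.53 in epithelial and -1.83 in spindle cell tumors, and the difference between them was tested as an interaction. It was -2.36 (SE 0.77) with a limma adjusted p of 0.212, beside 0.445% of all genes called. Igf1 was the 1 member with an unadjusted p under 0.05 in this test, as were 12.2% of all genes. With normexp background correction the interaction of Igf1 was -2.70 with loess (limma adjusted p = 0.0173) and -2.55 with median centering (limma adjusted p = 0.0194). It was -2.64 without tumors 42L4B, 60L and M86R (limma adjusted p = 0.0698) and -2.83 without M18L (limma adjusted p = 0.0509). Tumors 42L4B, 60L and M86R had failed a check of their channels in an earlier analysis, and the main fits include them. The call of Igf1 thus depended on the background correction and on which tumors were included. In the same test all 9 adipocyte markers were below 0, with a median of -3.27, and all 9 had an unadjusted p under 0.05. All 12 fibroblast markers were below 0, with a median of -1.57, and 7 were under 0.05 and 1 called. The part of these cell types in the interaction of Igf1 was not tested.

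Adult HFD in spindle cell tumors gave 0 members under an unadjusted p of 0.05, beside 0% of genes called and 2.49% under 0.05. Between early and late spindle cell tumors 0% of genes were called, and 2 members, Irs2 and Irs1, were among the 2.03% under 0.05. Irs2 was -0.58, -1.12 and 0.61 in the 3 early tumors and -1.92 to -0.84 with a median of -1.50 in the 9 late ones, and 2 early tumors lay above every late one. The difference was 1.14 (SE 0.34, limma adjusted p = 1). Irs1 was -3.49, -2.41 and -1.63 in early tumors and -2.59 to 0.16 in late ones, a difference of -1.42 (SE 0.55, limma adjusted p = 1). All 3 early tumors lay below the late median of -0.95. The early spindle cell tumors came from the switched regimens only, 1 from HFD-LFD and 2 from LFD-HFD. Those of LFD and HFD were all late, so onset was tied in part to regimen.

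The onset difference of Irs2 was thus -1.33 in epithelial and 1.14 in spindle cell tumors, where onset was tied in part to regimen. The interaction was 2.46 (SE 0.76, limma adjusted p = 0.9999), and 0.00478% of all genes were called in that test, beside 3.01% under an unadjusted p of 0.05. Irs1 was the other of the 2 members under 0.05 there, at -1.55.

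Spindle cell tumors had higher Igfbp3 than epithelial tumors, the 1 member called in any comparison. The threshold here was an adjusted p of 0.05, passed by 20.2% of all genes, 7.92% higher and 12.2% lower. Igfbp3 ran from -2.34 through -0.42 to 1.72 in 28 epithelial tumors and from -0.81 through 0.43 to 1.75 in 12 spindle cell tumors. Although the ranges overlapped, 10 of the 12 spindle cell tumors lay above the epithelial median. Means were 0.47 ± 0.78 (SD, n = 12) and -0.44 ± 0.87 (SD, n = 28), a difference of 0.91 (SE 0.28, interval 0.34 to 1.49), or 1.88-fold, with a limma adjusted p of 0.0194.

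The difference of Igfbp3 came from both channels. The tumor channel was higher by 0.55 in spindle cell tumors and the reference channel lower by 0.36, although the reference was the same pool. For Igfbp2 the reference channel was lower by 1.22 in spindle cell tumors, more than the difference of -0.55 in its log2 ratio. The call of Igfbp3 was lost with late tumors only, at 0.80 (limma adjusted p = 0.165), with the mean over both probes, at 0.77 (0.0648), and with slide as a random block, at 0.92 (0.0532). Leaving out each of the 41 tumors in turn kept it, with adjusted p from 0.00633 to 0.0483.

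Fibroblast markers moved with histology too, with 6 of 12 called higher and means over the list of -2.79 to 0.62 in spindle cell and -3.14 to -0.26 in epithelial tumors. All 11 epithelial markers had a lower mean in spindle cell tumors, with a median difference of -0.73, 5 of them at an unadjusted p under 0.05 and 1 called. Of 7 endothelial markers 3 were called higher, with means over the list of -1.35 to 1.03 in spindle cell and -2.04 to 0.45 in epithelial tumors. Of 9 macrophage markers, all with a higher mean in spindle cell tumors, 2 were called, and the list lay at 0.38 to 2.12 and -0.45 to 1.74. The part of other cell types in the Igfbp3 difference was not tested. Among the other members, Irs1 was lower by 0.68 before adjustment (interval -1.34 to -0.02, limma adjusted p = 0.139) and Igfbp5 had a difference of -1.12 (interval -2.29 to 0.05). The second, dimmer Irs1 probe, whose tumor signal was well above background on 39 of 41 arrays, gave a difference of -0.27. With late tumors only, Irs2 passed, at -1.56 (limma adjusted p = 0.0276). The ligands Igf1 and Igf2 had differences of 0.12 and -0.40, and those of the receptors Igf1r, Igf2r and Insr were -0.14, 0.34 and -0.17, and all 5 intervals included 0.

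Around these members, 60 of 62 other genes of the pathway could be tested, on a list that was known with earlier results of these data. Between histologies 7 were higher and 5 lower in spindle cell tumors, with a median difference of 0.00 over the list and -0.07 over all genes. Over all genes 7.92% were called higher and 12.2% lower, and 12 of 60 was a share near the 20.2% of all genes. Of the 12 called genes, 4 stayed past the threshold with slide as a random block, 3 with late tumors only and 4 under normexp with median centering, Igfbp4 among them each time. Igfbp4, an inhibitory binding protein, was higher by 1.50 (SE 0.30, limma adjusted p = 0.000415). Stc1, an inhibitor of the protease that cleaves IGFBP4, was higher by 1.85 (SE 0.45), although its tumor signal was well above background in 9 of 29 epithelial and 5 of 12 spindle cell tumors. Pik3cd and Pik3cb, catalytic subunits of phosphoinositide 3-kinase, went in opposite directions, at 0.61 and -0.44. Downstream, Akt1 was higher by 0.38 and Mtor by 0.38, as was the translation repressor Eif4ebp1 by 0.60, while Rheb, the activator of mTOR complex 1, was lower at -0.45. Socs3, a feedback inhibitor, was higher by 0.43. Ins2, an insulin gene, was lower at -0.51, Ide, which degrades insulin, at -0.39 and the kinase Gsk3a at -0.32.

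Among the epithelial regimens, the pathway list gave 1 call in each of 2 comparisons, both of glycogen synthase kinases, which AKT inhibits. Gsk3b was higher in HFD-LFD than in LFD tumors by 0.95 (SE 0.26, limma adjusted p = 0.0951), with values of 0.39 to 1.22 against -1.62 to 0.72. Gsk3a was lower in LFD-HFD than in HFD tumors, at -0.56 (SE 0.13, limma adjusted p = 0.0965), with values of -0.53 to -0.02 against 0.05 to 0.57, so these groups did not overlap. Of all genes, 0.363% were called higher and 0.889% lower in the first comparison, and 0.0956% higher and 0.167% lower in the second. In the F-test over the 4 epithelial regimens the list gave 1 call, again Gsk3a (limma adjusted p = 0.0691), beside 0.473% of all genes. With slide as a random block all 3 calls were lost. The limma adjusted p was 0.385 for Gsk3b, 0.332 for Gsk3a in LFD-HFD against HFD and 0.368 for Gsk3a in the F-test. All 3 were also lost with 1 tumor kept for each animal number that 2 labels share. There the limma adjusted p was 0.203, 0.1095 and 0.138 in the same order, and the F-test called 10 of all genes, against 99 before. When each of the 29 epithelial tumors was left out in turn, the call of Gsk3b held in 9 of the 29 fits, that of Gsk3a in LFD-HFD against HFD in 7 and that in the F-test in 21. The list gave no call between early and late tumors, with 4 of 60 genes at an unadjusted p under 0.05 in epithelial tumors, beside 13.2% of all genes, and 1 of 60 in spindle cell tumors, beside 2.03%.

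The members were then set against each other over the epithelial tumors, in 45 pairs with permutation p-values adjusted over the pairs. By Pearson r, Igf1 and Irs2 were the 1 pair past an adjusted p of 0.10, with an r of 0.565 (two-sided permutation p = 0.00166, adjusted p = 0.0747) and a Spearman rho of 0.546 (permutation p = 0.00316, adjusted p = 0.0711) over 28 tumors. Without the 2 tumors farthest from the median of Igf1, r was 0.535, and after removal of slide means it was 0.501 (adjusted p = 0.0831). It was 0.510 without 42L4B and 60L, where it no longer passed (adjusted p = 0.178). Irs2 and Igfbp2 had an r of 0.513 (permutation p = 0.00495, adjusted p = 0.111). Their rho was 0.5265 (permutation p = 0.00477, adjusted p = 0.07155), so the pair passed 0.10 by rho but not by r. Insr and Igf2 had a rho of -0.710 (permutation p = 6e-05, adjusted p = 0.0027) over 29 tumors but an r of -0.283 (permutation p = 0.145, adjusted p = 0.545), which was -0.514 without the 2 tumors farthest from the median of Igf2.

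**Figure D4:**
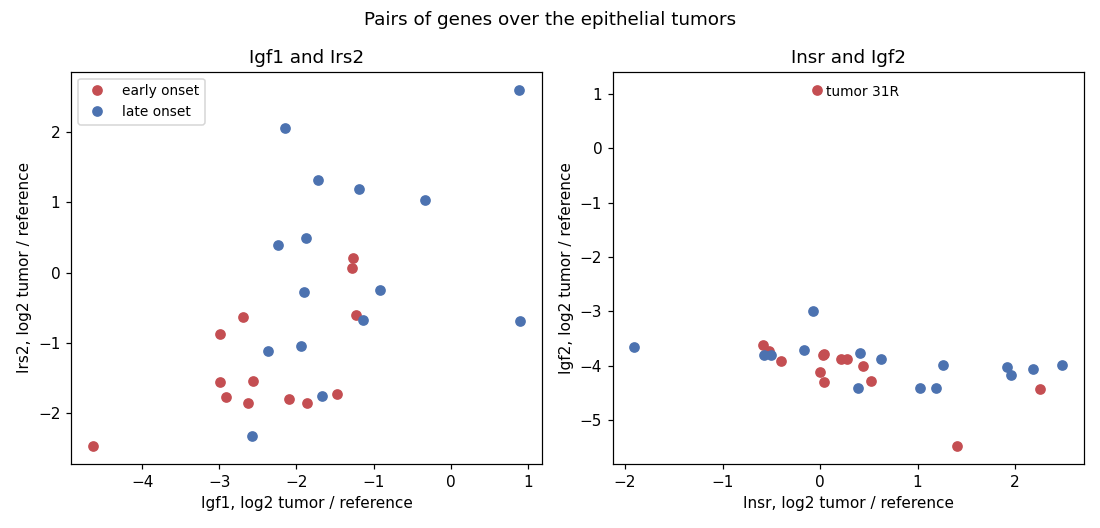
Each point is 1 epithelial tumor, with log2 tumor over reference signal of Igf1 against Irs2 on the left and of Insr against Igf2 on the right, early tumors in red and late tumors in blue. Igf1 and Irs2 rise together (r 0.565), and tumor 31R stands apart in Igf2 at 1.08.

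Igf2, the fetal ligand, was far below the reference in nearly every tumor. Apart from tumor 31R, an early LFD tumor, the epithelial tumors lay between -5.47 and -2.99 with a median of -3.94, and the spindle cell tumors between -5.02 and -2.63. In 31R it was 1.08. The genes nearest to Igf2 in pattern, by Pearson r over the epithelial tumors, were Dlk1 and Mirg, both from an imprinted cluster on chromosome 12, at 0.975 and 0.921 over 26 tumors. Without 31R the values were 0.669 and 0.335. The third, the transcript TC1598077, had an r of 0.905, or 0.755 without 31R, and was 2.02 in 31R and -1.17 to 0.45 in the other tumors. Dlk1, a transmembrane protein of fetal tissue, was 0.12 in 31R and -7.94 to -6.49 in the other 25 tumors with a value. Meg3, from the same imprinted cluster as Dlk1, was -3.26 in 31R, within the -4.12 to -2.81 of the others. H19, the imprinted neighbor of Igf2, was -3.23 in 31R and -4.53 to -2.55 in the others. The description of 31R was chosen after its values were seen.

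Irs2 had its nearest patterns among its own neighbors on chromosome 8, which was noticed after the values were seen and is given as a description with no test. Over 28 epithelial tumors that share the reference and slides, the 3 genes most like it were Arhgef7 (r 0.894), 2610319H10Rik (0.875) and 2610019F03Rik (0.859), whose probes lie 0.831, 0.618 and 2.95 Mb away. Of the 16 genes tested within 1 Mb, 8 had an r over 0.5, against 2.30% of all genes. Without the 2 tumors farthest from the median of Irs2, 2 of these 8 fell below 0.5, 3930402G23Rik (r 0.434) and Col4a2 (r 0.390). The median r was 0.483 within 1 Mb, 0.455 over 49 genes from 1 to 5 Mb, 0.139 over 141 genes from 5 to 20 Mb, -0.081 over 162 genes from 20 to 60 Mb and -0.298 over 684 genes beyond that. In the 12 spindle cell tumors the same medians were 0.462, 0.267, -0.024, -0.121 and -0.184.

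**Figure D5:**
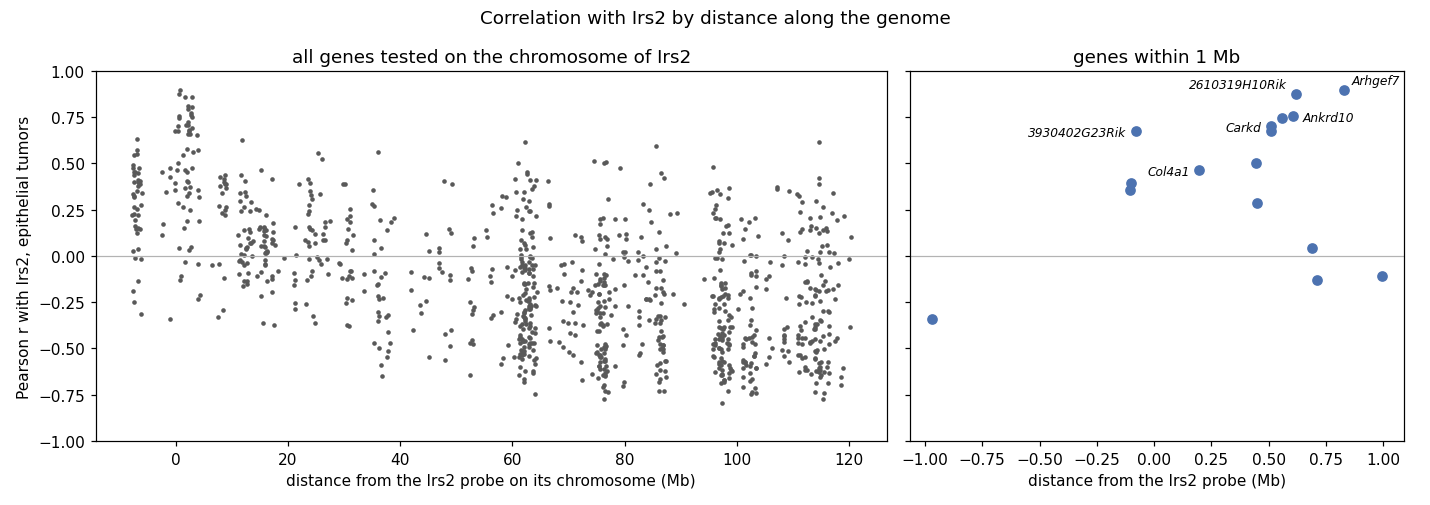
Points are genes on the chromosome of Irs2, placed by the distance of their probe from the Irs2 probe (horizontal axis, Mb) and by the Pearson r of their log2 ratio with that of Irs2 over epithelial tumors (vertical axis), for the whole chromosome on the left and within 1 Mb on the right. The median r is 0.483 within 1 Mb and -0.298 beyond 60 Mb.

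Insr, on the same chromosome, had 9 of 22 neighbors within 1 Mb with an r over 0.5, against 2.32% of all genes, and the gene nearest to it in pattern was Abhd13 (r 0.799), whose probe lies 6.84 Mb away. Without the 2 tumors farthest from the median of Insr, 1 of its 9 such neighbors, Arhgef18, fell below 0.5 (r 0.488). No other member had more than 1 neighbor with an r over 0.5 except Igf2, with 7 of 50. Without the 2 tumors farthest from the median of Igf2, only 1 of these 7, Tnni2, stayed above 0.5 (r 0.639). The genes most like the other members lay on other chromosomes and were Pi16 for Igf1 (r 0.792), Vwa1 for Igfbp2 (0.838), Gas1 for Igfbp3 (0.714), Airn for Igfbp5 (0.795), Itprip for Igf1r (0.753), 9430031J16Rik for Igf2r (0.693) and, among named genes, Tm4sf1 for Irs1 (0.735). Without the 2 tumors farthest from the median of Igf2r, its r with 9430031J16Rik was 0.346.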

How the data were processed

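RNA of 41 tumors and a common reference were measured on 2-color arrays of 39429 probes. The authors deposited scanner files, in which the intensity per spot in each channel had been background corrected, detrended and LOWESS dye normalized by Agilent Feature Extraction (version 8.5.1.1 per the labels, 11.0.1.1 or 10.5.1.1 per the file headers), and a matrix of their normalized, filtered and imputed log2 ratios. Here log2 ratios of the processed intensities were used. Outlier spots, 1.19% of values, were left missing. Probes were kept if tumor and reference signals exceeded 10 on 80% of arrays or more, which left 27307, and each gene took its brightest probe. limma 3.58.1 (lmFit, eBayes, Benjamini-Hochberg) in R 4.3.3 was fitted to all 20913 genes at 0.10, or 0.05 between histologies, in place of the SAM test of the study. Correlations used 100000 permutations. The fits were tested on simulated data.

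The members and lists were chosen with earlier results of these data known. Named genes were the members, the 3 genes nearest each in pattern, and up to 5 pathway genes called per direction, plus Akt1 and Mtor, added after their values were seen. Alternatives changed the background correction, normalization, filter, probes, outliers, slide, tumors and labels, or used the matrix. The number of arrays limits the precision. Where tumors share a host mouse is not known, and p-values measure the spread between tumors.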

Additional observations from a re-analysis of the deposited data

Results flagged for a closer look

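Of 40 groups of members by regimen and histology that could be tested, 4 held a tumor far from the others, and chance marks about 1 in 20 groups. Igf2 in the LFD epithelial tumor 31R was 1.08, while the next was -3.87, a gap of 0.921 of the range of 8 tumors. Igf2 in the HFD epithelial tumor 60L was -5.47, while the next was -4.42, a gap of 0.597 of the range, and 60L is the array with 22% of spots marked as outliers. Igf2r, the receptor that clears IGF2, was -3.35 in the HFD epithelial tumor 65R, while the next was -0.98, a gap of 0.776 of the range of 7 tumors, and 65R is among the 3 tumors whose labels differ between the files. Igfbp3 was 1.72 in the HFD epithelial tumor 66L, while the next was 0.17, a gap of 0.623 of the range.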

How the results depend on the processing

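The number of members called between spindle cell and epithelial tumors was 1 and became 0 with the mean over probes and with slide as a random block. For pubertal HFD by histology it was 0 and became 1, Igf1, under normexp with loess, under normexp with median centering, and without tumors 42L4B, 60L and M86R (-2.64, limma adjusted p = 0.0698). Leaving out 1 tumor at a time gave 0 to 1 there, the 1 without the LFD tumor M18L (-2.83, limma adjusted p = 0.0509). Pairs correlated by Pearson r numbered 1. They became 2 under median centering, 4 with slide means removed and 0 with the authors' matrix. They also became 0 with 1 tumor kept for each animal number that 2 labels share, and without tumors 42L4B and 60L. Of 2380 other values of member differences under alternatives, 2373 kept their side of the threshold, 3 lost and 4 gained a call, and 131 uncalled ones changed sign. Of 5020 with 1 tumor left out, 5019 kept their side. No called difference changed direction. No paired analysis was possible because the replicate numbers follow accession order and pair no tumors. All member probes used were well above background. The number of tumors, 3 per regimen among spindle cell tumors, the tie of slide to regimen and of scan session to histology, and probes that disagree all limit these results.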
